A study of Homo sapiens with 24 samples.

Results

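Of the 26450 genes in the deposited expression table, 76 are nuclear genes whose symbols name them as subunits of the mitochondrial respiratory chain or of ATP synthase. The rule uses names and levels and no comparison between groups. It took symbols that begin with NDUFA, NDUFB, NDUFC, NDUFS or NDUFV and a digit, with UQCR, with COX and a digit from 4 to 8, or with ATP5, that hold no hyphen and reach 1 FPKM (a level per transcript length and library size) in at least 3 of the 24 libraries. The 76 genes comprise 36 of complex I, 9 of complex III, 14 of complex IV and 17 of complex V. NDUFA4, named after complex I but known as a subunit of cytochrome c oxidase, and its relative NDUFA4L2 were counted with complex IV. Complex II falls outside the name rule and is described with the other genes of the pathway.

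The study cultured 2 human lines in 4 formats, with 3 RNA-seq libraries for each of the 8 combinations. HEK293T is a human embryonic kidney line that carries the SV40 large T antigen, and PANC-1 was established from a carcinoma of the human pancreatic duct. Each was grown in a dual-axis rotating capillary container (DRCC), a rotating vessel for spheroids, at 30 rpm or at 1 rpm, in AggreWell, a microwell plate in which cells settle into spheroids, and as a flat 2D layer. The numbered libraries are not stated to come from separate cultures, so each p-value measures the spread between libraries, which may be technical. The sources used here state no culture times, media or spheroid sizes.

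Oxidative phosphorylation passes electrons from NADH through complex I, ubiquinone, complex III and cytochrome c to oxygen at complex IV, and uses the proton gradient built on the way to drive ATP synthase, complex V. Most subunits are encoded in the nucleus and imported, and a small core of complexes I, III, IV and V is encoded by mitochondrial DNA. Nuclear respiratory factor 1 (NRF1), the ETS-family GA-binding protein (GABP) and YY1 are textbook regulators of the nuclear genes. Low oxygen is known to lower respiration and to exchange a few subunits for others, of which NDUFA4L2 is the best known.

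Library totals recovered from the FPKM steps were 32555400 to 39556168 fragments. Of the line markers, KRT7, KRT19, S100A6, LGALS3 and MUC1 were higher in PANC-1, and LIN28B, HOXA9, GATA3 and TUBB2B were higher in HEK293T, whereas PAX2, chosen as a HEK293T marker, was higher in PANC-1. KRT7 and KRT19, epithelial keratins, were low in PANC-1 itself, with medians of 0.976 and 1.505 FPKM over its 12 libraries. The 13 mitochondrially encoded subunit genes took 4.09 to 4.26% of fragments at DRCC 30 rpm, 3.33 to 3.52% at DRCC 1 rpm, 3.42 to 3.56% in AggreWell and 4.68 to 4.85% in 2D in HEK293T. In PANC-1 they took 1.57 to 1.62% at DRCC 30 rpm, 2.31 to 2.45% at DRCC 1 rpm, 4.25 to 4.31% in AggreWell and 4.10 to 4.68% in 2D.

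Promoter sequence was available for 64 of the 76 genes (RefSeq, GRCh38.p14, 250 bases before to 50 after the start). A search of both strands found the NRF1 core GCGCATG in 13 of the 64 genes (20.3%), against 5.30% of all 27305 genes with a promoter. The ETS core CCGGAAG stood in 19 (29.7%, against 12.2%), the YY1 core AAGATGGC in 11 (17.2%, against 3.52%) and the hypoxia response core ACGTG in 17 (26.6%, against 24.9%). At DRCC 30 rpm against 2D in HEK293T, genes with the ETS core had a median log2 change of -0.91 and those without it -0.64. Called higher were 0 of 19 and 5 of 45, against 49.6% of all genes tested there. The 5 include COX6B2 and NDUFA4L2, which reached 1 FPKM in HEK293T only in spheroid libraries, so that count is no support for a difference. For the YY1 core both medians were -0.70, as they were for the hypoxia core, and for the NRF1 core they were -0.78 with and -0.69 without. In PANC-1 the 13 genes with the NRF1 core had 6 called higher, 5 lower and a median of 0.04, against 10, 28 and -0.17 for the 50 others. Over all genes tested in PANC-1, 53.6% were called higher and 32.2% lower, so 6 of 13 higher did not exceed the share over all genes. The motif shares describe letters in a window and not binding.

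The promoters of 4 genes are shown, chosen by their changes in level, and a link between sequence and change was not tested. ATP5MC1 and NDUFB7 had the lowest log2 changes of complexes V and I in HEK293T at DRCC 30 rpm, and NDUFS7 and NDUFS6 were called in opposite directions in the 2 lines there, NDUFS6 not under median-ratio scaling. Capitals mark the motifs on either strand, and the windows run 5′ to 3′ on the gene's strand. They are chr17:48892537-48892836 (plus strand), chr19:14572017-14572316 (minus strand), chr19:1383657-1383956 (plus strand) and chr5:1801157-1801456 (plus strand).
ATP5MC1: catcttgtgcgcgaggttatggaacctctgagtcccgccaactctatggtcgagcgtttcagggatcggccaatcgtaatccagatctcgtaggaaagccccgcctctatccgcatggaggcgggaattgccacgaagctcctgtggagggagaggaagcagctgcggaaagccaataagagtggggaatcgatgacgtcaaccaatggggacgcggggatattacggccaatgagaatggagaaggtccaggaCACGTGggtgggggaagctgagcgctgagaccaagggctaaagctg
NDUFB7: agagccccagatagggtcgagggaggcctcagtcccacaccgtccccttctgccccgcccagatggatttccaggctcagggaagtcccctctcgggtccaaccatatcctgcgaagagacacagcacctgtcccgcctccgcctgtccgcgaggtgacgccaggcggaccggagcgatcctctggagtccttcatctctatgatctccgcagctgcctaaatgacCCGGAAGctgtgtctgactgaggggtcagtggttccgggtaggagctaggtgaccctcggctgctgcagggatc
NDUFS7: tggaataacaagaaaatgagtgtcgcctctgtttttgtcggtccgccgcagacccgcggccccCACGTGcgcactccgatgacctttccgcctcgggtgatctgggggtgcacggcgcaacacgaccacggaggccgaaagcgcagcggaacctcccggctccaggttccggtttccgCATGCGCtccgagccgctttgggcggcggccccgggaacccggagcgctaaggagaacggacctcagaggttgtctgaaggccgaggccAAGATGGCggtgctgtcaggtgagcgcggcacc
NDUFS6: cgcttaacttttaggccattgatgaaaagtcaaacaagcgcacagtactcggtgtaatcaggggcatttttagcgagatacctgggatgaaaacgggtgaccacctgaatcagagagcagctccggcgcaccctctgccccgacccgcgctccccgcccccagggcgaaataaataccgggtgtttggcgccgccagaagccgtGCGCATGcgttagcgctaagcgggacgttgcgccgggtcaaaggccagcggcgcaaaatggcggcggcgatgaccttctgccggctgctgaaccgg
ATP5MC1 and NDUFS7 each hold the palindrome CACGTG, which carries the hypoxia core on both strands. NDUFB7 holds the ETS core, NDUFS7 the NRF1 and YY1 cores and NDUFS6 the NRF1 core.

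The summed level of the 76 genes was lowest at DRCC 30 rpm and highest in 2D in HEK293T. The sum was 6871 ± 193 FPKM at DRCC 30 rpm, 7459 ± 170.0 at DRCC 1 rpm, 8740.4 ± 77.7 in AggreWell and 11760.5 ± 180.2 in 2D (SD, n = 3 each), and no 2 formats overlapped. In PANC-1 it was 9286 ± 439.7 FPKM at DRCC 30 rpm, 8772 ± 98.9 at DRCC 1 rpm, 9888 ± 94.5 in AggreWell and 10592 ± 275 in 2D (SD, n = 3 each). There the DRCC 30 rpm libraries, at 8818 to 9689 FPKM, overlapped the range of DRCC 1 rpm, 8662 to 8853 FPKM, and lay below every 2D library. As a share of all FPKM of a library, the sum was 1.79 ± 0.0416% at DRCC 30 rpm and 2.68 ± 0.025% in 2D in HEK293T, and 2.38 ± 0.0853% at DRCC 30 rpm and 2.58 ± 0.0673% in 2D in PANC-1 (SD, n = 3 each). At DRCC 1 rpm and in AggreWell the share was 1.97% and 2.25% in HEK293T and 2.37% and 2.57% in PANC-1. The FPKM of all genes itself summed to 383074 at DRCC 30 rpm and 438166 in 2D in HEK293T, so sums and shares differ. FPKM is scaled to library size, so the sums do not measure RNA per cell. In such bulk libraries, fewer cells that express a gene and a lower level in each cell cannot be told apart.

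**Figure D1:**
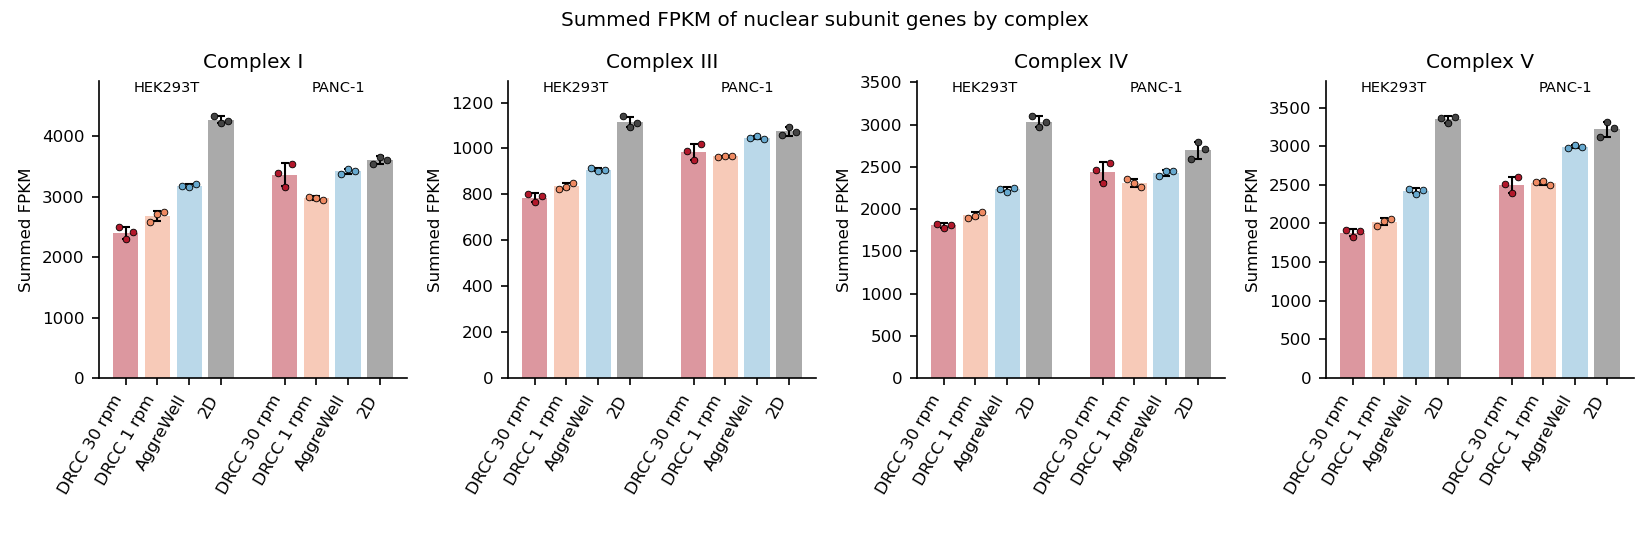
Summed FPKM of the nuclear subunit genes of each complex (vertical axes) by line and format. Bars are means, error bars SD and points the 3 libraries. In HEK293T all 4 complexes run upward from DRCC 30 rpm to 2D, with complex V at 1826 to 1914 FPKM at DRCC 30 rpm and 3296 to 3375 FPKM in 2D, and in PANC-1 the formats lie closer together.

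At DRCC 30 rpm relative to 2D, the sum of complex V was the lowest of the 4 in PANC-1, and those of complexes V and I were the lowest in HEK293T. Complex V summed to 1880.4 ± 47.7 FPKM at DRCC 30 rpm and 3346 ± 43.8 FPKM in 2D in HEK293T, and 2500.4 ± 102 FPKM at DRCC 30 rpm and 3218 ± 97.4 FPKM in 2D in PANC-1 (SD, n = 3 each). Complex I came to 2399 ± 100.1 FPKM at DRCC 30 rpm and 4268 ± 57.2 FPKM in 2D in HEK293T, against 3364 ± 187 FPKM at DRCC 30 rpm and 3603 ± 60.7 FPKM in 2D in PANC-1. Complex III, the smallest sum, was 786 ± 19.5 FPKM at DRCC 30 rpm and 1116 ± 23.1 FPKM in 2D in HEK293T and 985 ± 34.95 FPKM at DRCC 30 rpm and 1074 ± 17.96 FPKM in 2D in PANC-1. Complex IV was 1806 ± 27.6 FPKM at DRCC 30 rpm and 3031 ± 65.9 FPKM in 2D in HEK293T and 2437 ± 115 FPKM at DRCC 30 rpm and 2697 ± 100.1 FPKM in 2D in PANC-1.

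A further 7 matching symbols did not reach the level asked for. They were the tissue-restricted isoforms COX4I2, COX6A2, COX7A1, COX7B2 and COX8C and the copy ATP5MGL, each at most 0.446 FPKM in all 24 libraries, and ATP5F1E, which reached 0.878 FPKM at its highest. ATP5F1E encodes the epsilon subunit of the ATP synthase head, and its level here rests on a counted length of 3610 bases. Of the 76 genes, all were tested in HEK293T and 75 in PANC-1, where NDUFA4L2 passed too few libraries. UQCRHL is a near-identical copy of UQCRH, so reads of the pair are uncertain. In RefSeq 21 of the 76 genes overlap another gene of the table, among them NDUFA4L2 (SHMT2), ATP5PF (GABPA), NDUFS6 (MRPL36) and UQCRC2 (PDZD9), and the sources used here do not say whether counting was by strand.

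In HEK293T at DRCC 30 rpm nearly the whole set was lower than in 2D. Genes were tested with limma on log2(FPKM + 1), the scale of every log2 change below, and called at a Benjamini-Hochberg adjusted p under 0.05. Of the 76 genes, 68 fell and 6 rose, and the median log2 change was -0.70, against 0.13 over all genes tested. Over the 12548 genes tested, 35.5% were called lower and 49.6% higher. At least a 2-fold fall was seen in 18 genes and none rose that far. By complex, 33 of 36 genes of complex I fell, 7 of 9 of complex III, 11 of 14 of complex IV and all 17 of complex V, with medians of -0.77, -0.70, -0.63 and -0.82. The 7 core subunits of complex I, which hold its flavin and iron-sulfur clusters, had a median of -0.34 and the 29 accessory ones -0.79.

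PANC-1 at DRCC 30 rpm was mixed. Of 75 genes, 40 fell and 18 rose, with a median of -0.14 against 0.17 over all genes tested, of which 32.2% were called lower and 53.6% higher. Median-ratio scaling, which sets the typical gene to no change, gave 58 lower and 8 higher, with a median of -0.38. Over all genes this scaling gave 44.8% lower and 41.1% higher. Relative to all genes, the median of the set was -0.31 by the deposited values and -0.35 under median-ratio scaling. Complex V fell most often, with 13 of 17 lower and a median of -0.36. Complex I had 18 lower and 11 higher, complex III 4 lower and 2 higher, and complex IV 5 lower and 3 higher with a median of 0.04, which turned to -0.20 under median-ratio scaling. That scaling moved the median of all genes by -0.25 to -0.15 in the 6 comparisons with 2D. Relative to all genes, the median of the set was below 0 at DRCC 30 rpm under all 5 scalings compared, from -0.87 to -0.44 in HEK293T and from -0.37 to -0.09 in PANC-1.

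**Figure D2:**
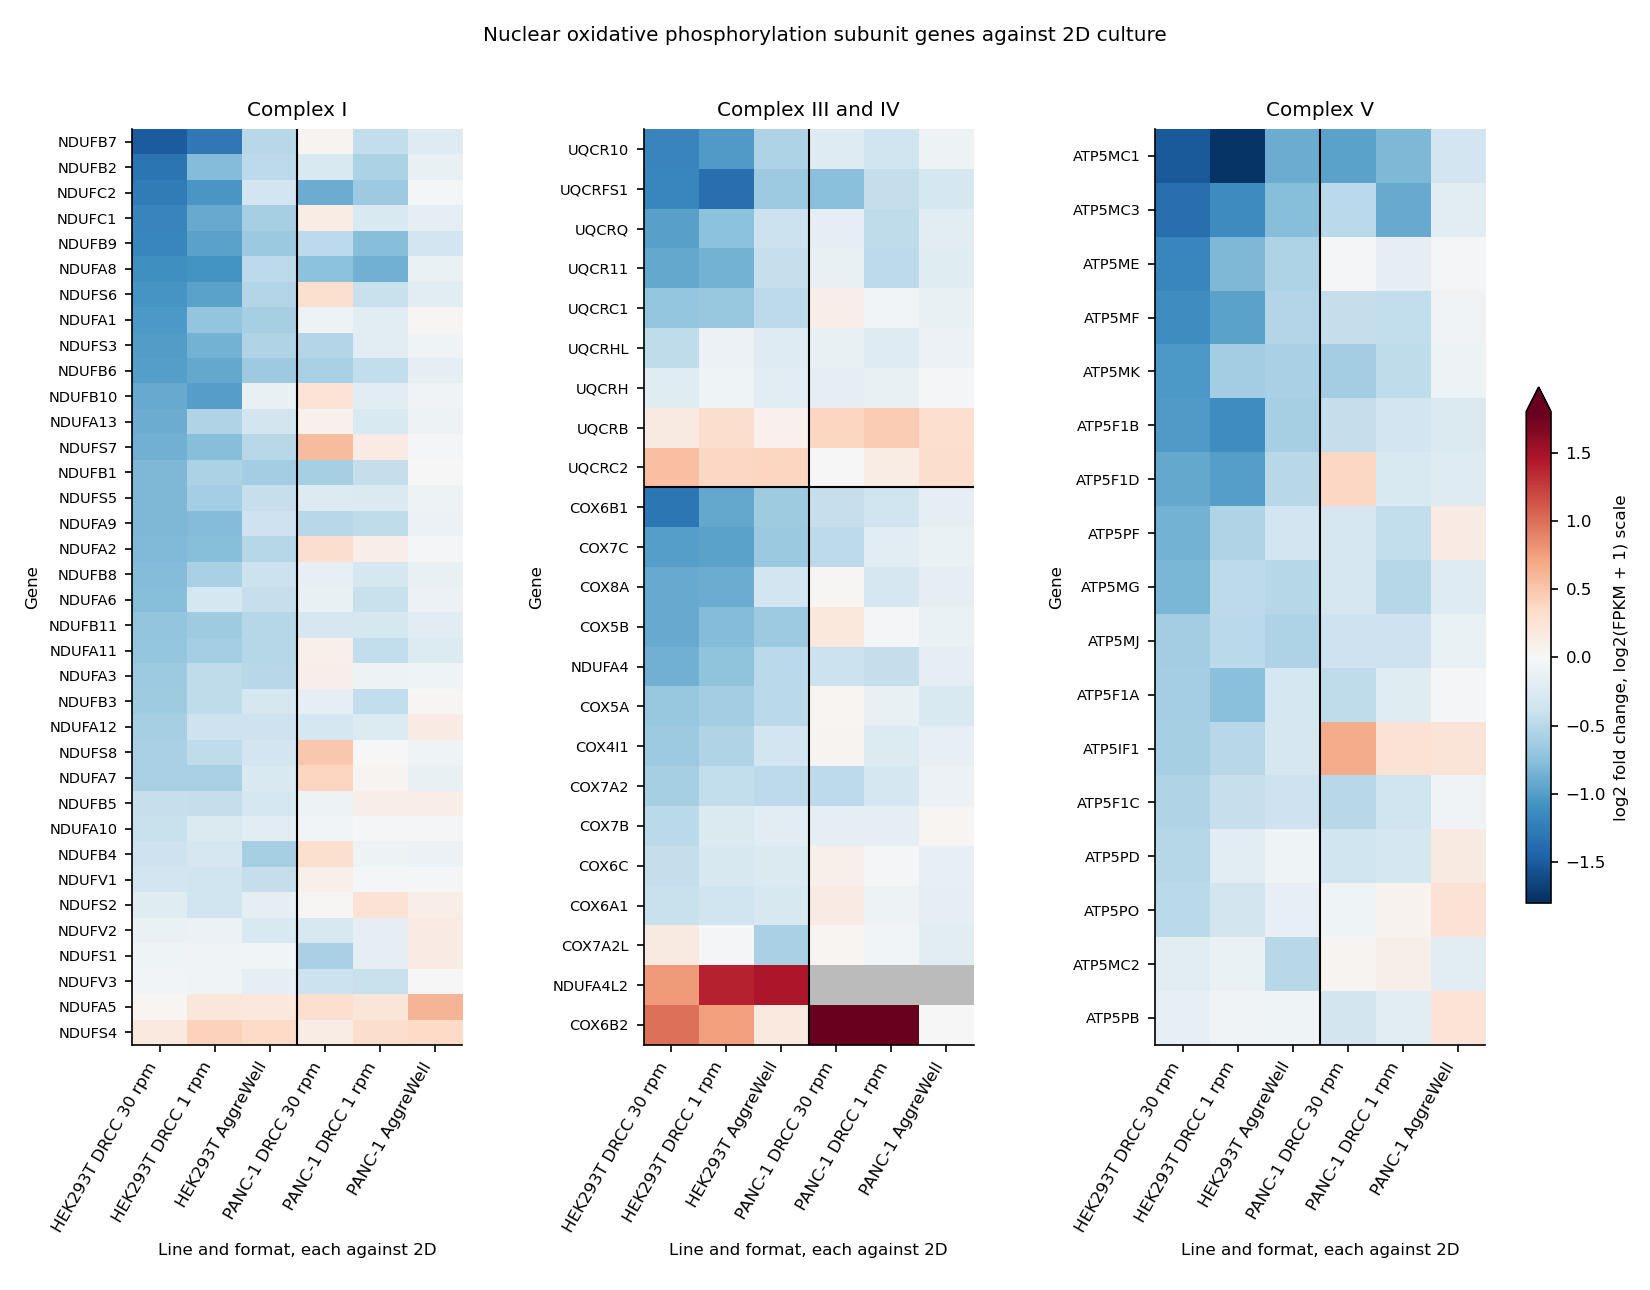
Log2 fold change over 2D, on the log2(FPKM + 1) scale, of each gene (rows, ordered within a complex by HEK293T DRCC 30 rpm) in the 6 line and format combinations (columns). Blue is lower and red higher than 2D, and grey is not tested. HEK293T columns are blue for nearly all genes, PANC-1 columns are paler and mixed, and COX6B2 in PANC-1 (1.87 and 1.96) passes the upper end of the scale.

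Complex I holds the entry point for electrons from NADH. NDUFB7, an accessory subunit on the intermembrane side of the membrane arm, had 32.7, 31.7 and 32.1 FPKM at DRCC 30 rpm, 36.7, 38.0 and 37.3 FPKM at DRCC 1 rpm, 66.1, 63.9 and 66.0 FPKM in AggreWell and 96.0, 85.7 and 96.8 FPKM in 2D in HEK293T. Every DRCC library lay below every AggreWell library and every 2D library. Its level at DRCC 30 rpm fell by 1.498 ± 0.04 (SE, adjusted p = 1.2e-12) on the log2 scale against 2D. Its PANC-1 levels were 48.1, 45.6 and 48.3 FPKM at DRCC 30 rpm, 33.2, 32.9 and 34.1 FPKM at DRCC 1 rpm, 37.3, 40.4 and 38.7 FPKM in AggreWell and 48.0, 45.2 and 43.6 FPKM in 2D. There the DRCC 30 rpm and 2D libraries overlapped and the log2 difference of 0.05 ± 0.04 (SE, adjusted p = 0.22) was not called, although it was called at 0.09 without 2D replicate 1 and turned to -0.19 under median-ratio scaling.

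NDUFC2, a small membrane-arm subunit, had the largest change of complex I in PANC-1. It had 3.21, 2.98 and 2.78 FPKM at DRCC 30 rpm and 5.95, 7.33 and 5.96 FPKM in 2D, and fell by 0.89 ± 0.07 (SE, adjusted p = 2e-08) on the log2 scale. In HEK293T it had 1.65, 1.797 and 1.502 FPKM at DRCC 30 rpm and 5.03, 5.99 and 5.06 FPKM in 2D, and fell by 1.26 ± 0.07 (SE, adjusted p = 1.4e-09). The groups did not overlap in either line. NDUFA8, another intermembrane-side subunit, fell by 1.1002 ± 0.05 (SE, adjusted p = 8.3e-11) in HEK293T and 0.74 ± 0.06 (SE, adjusted p = 4.7e-08) in PANC-1, and NDUFB2 fell by 1.32 in HEK293T and 0.27 in PANC-1.

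NDUFS7 and NDUFS6 sit in the peripheral arm of complex I. NDUFS7 binds the last iron-sulfur cluster before ubiquinone, and NDUFS6 is a zinc-binding subunit needed late in assembly. In HEK293T, NDUFS7 had 22.01, 21.8 and 22.9 FPKM at DRCC 30 rpm, 24.6, 24.1 and 22.7 FPKM at DRCC 1 rpm, 28.6, 28.5 and 29.7 FPKM in AggreWell and 40.5, 40.4 and 42.5 FPKM in 2D. In PANC-1 the levels were 22.8, 21.7 and 21.7 FPKM at DRCC 30 rpm, 16.3, 16.01 and 16.3 FPKM at DRCC 1 rpm, 14.9, 14.1 and 14.2 FPKM in AggreWell and 14.1, 14.1 and 15.5 FPKM in 2D. The ranges of the 2 lines overlapped at DRCC 30 rpm and stood far apart in 2D. Against 2D, NDUFS7 fell by 0.86 ± 0.04 (SE, adjusted p = 8e-11) in HEK293T and rose by 0.57 ± 0.04 (SE, adjusted p = 6.5e-09) in PANC-1, on the log2 scale.

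NDUFS6 had 127, 119 and 122 FPKM at DRCC 30 rpm and 261, 257 and 256 FPKM in 2D in HEK293T, and 263, 232 and 266 FPKM at DRCC 30 rpm and 202, 213 and 206 FPKM in 2D in PANC-1. Each pair of groups stood clear of each other, in opposite directions. On the log2 scale it fell by 1.06 ± 0.04 (SE, adjusted p = 5.7e-11) in HEK293T and rose by 0.29 ± 0.05 (SE, adjusted p = 6.6e-05) in PANC-1, a rise that was 0.05 and not called under median-ratio scaling. NDUFS4, an assembly-critical subunit of the same arm, had 18.05, 19.5 and 18.3 FPKM at DRCC 30 rpm and 17.4, 15.03 and 16.7 FPKM in 2D in HEK293T, and 75.96, 72.0 and 74.7 FPKM at DRCC 30 rpm and 68.0, 66.3 and 68.5 FPKM in 2D in PANC-1. It was called higher in both, at 0.18 ± 0.05 (SE, adjusted p = 0.007) in HEK293T and 0.13 ± 0.03 (SE, adjusted p = 0.00046) in PANC-1, but under median-ratio scaling the values were -0.02 and -0.11.

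Complex III passes electrons from ubiquinol to cytochrome c. Its Rieske iron-sulfur protein, UQCRFS1, had 21.1, 21.7 and 22.4 FPKM at DRCC 30 rpm, 20.6, 17.3 and 19.4 FPKM at DRCC 1 rpm, 30.5, 32.4 and 31.9 FPKM in AggreWell and 52.4, 48.1 and 50.2 FPKM in 2D in HEK293T. PANC-1 cells had 50.7, 52.7 and 49.1 FPKM at DRCC 30 rpm, 62.7, 64.9 and 64.2 FPKM at DRCC 1 rpm, 68.5, 69.3 and 69.0 FPKM in AggreWell and 82.9, 87.9 and 88.0 FPKM in 2D. In both lines every 2D library was above every library of the other formats. Against 2D the level at DRCC 30 rpm fell by 1.17 ± 0.05 (SE, adjusted p = 2e-10) in HEK293T and by 0.75 ± 0.03 (SE, adjusted p = 2.9e-11) in PANC-1. UQCR10, a small subunit beside the Rieske protein, had 68.0, 65.6 and 67.5 FPKM at DRCC 30 rpm and 157, 150.5 and 155 FPKM in 2D in HEK293T and fell by 1.19 ± 0.02 (SE, adjusted p = 1.2e-13) on the log2 scale. PANC-1 had 56.4, 55.7 and 59.999 FPKM at DRCC 30 rpm and 69.5, 65.0 and 67.4 FPKM in 2D of it, and the level fell by 0.23 ± 0.04 (SE, adjusted p = 0.00011).

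UQCRC2, one of the 2 large core proteins of complex III, went the other way in HEK293T. It had 104, 105 and 104 FPKM at DRCC 30 rpm, 93.1, 91.8 and 91.5 FPKM at DRCC 1 rpm, 94.4, 91.9 and 92.2 FPKM in AggreWell and 71.1, 70.8 and 71.0 FPKM in 2D there, with all 9 spheroid libraries above all 3 of 2D. The log2 change at DRCC 30 rpm was 0.55 ± 0.02 (SE, adjusted p = 2.6e-11). In PANC-1 it had 133, 133 and 134 FPKM at DRCC 30 rpm, 147, 145 and 151 FPKM at DRCC 1 rpm, 165, 169 and 170.1 FPKM in AggreWell and 133, 132 and 138 FPKM in 2D. There it stood highest in AggreWell, and the DRCC 30 rpm change of -0.012 ± 0.02 (SE, adjusted p = 0.67) was not called, while median-ratio scaling gave -0.25 and quantile normalization 0.05, both called. UQCRB, the ubiquinone-binding subunit, was called higher in both lines, at 0.16 ± 0.03 (SE, adjusted p = 0.00073) in HEK293T, where median-ratio scaling gave -0.04 and removal of the length trend -0.06, and at 0.38 ± 0.03 (SE, adjusted p = 5.5e-08) in PANC-1.

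Complex IV reduces oxygen to water, and several of its nuclear subunits come in isoforms. COX6B1, which lies on the intermembrane side where 2 copies of the complex meet, had 127, 119.99 and 131 FPKM at DRCC 30 rpm, 157, 159 and 176 FPKM at DRCC 1 rpm, 205, 200.1 and 192 FPKM in AggreWell and 314, 306 and 314 FPKM in 2D in HEK293T. Levels in PANC-1 were 453, 404 and 494 FPKM at DRCC 30 rpm, 467, 453 and 478 FPKM at DRCC 1 rpm, 534, 523 and 533 FPKM in AggreWell and 604, 613 and 573 FPKM in 2D. In HEK293T the 4 formats did not overlap, and in PANC-1 the 2 DRCC formats did. COX6B1 fell at DRCC 30 rpm by 1.29 ± 0.04 (SE, adjusted p = 9e-12) in HEK293T and 0.41 ± 0.05 (SE, adjusted p = 7.1e-06) in PANC-1, on the log2 scale.

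COX6B2, the isoform of COX6B1 known from testis, moved the other way from a low level. PANC-1 libraries held 4.83, 4.13 and 5.25 FPKM at DRCC 30 rpm, 4.13, 5.57 and 5.59 FPKM at DRCC 1 rpm, 0.374, 0.780 and 0.529 FPKM in AggreWell and 0.518, 0.380 and 0.814 FPKM in 2D. Both DRCC groups stood far above AggreWell and 2D, which overlapped. The log2 change was 1.87 at DRCC 30 rpm and 1.96 at DRCC 1 rpm, values that the added 1 FPKM holds down. In HEK293T it had 1.59, 1.63 and 2.08 FPKM at DRCC 30 rpm, 1.40, 1.05 and 1.503 FPKM at DRCC 1 rpm, 0.525, 0.400 and 0.790 FPKM in AggreWell and 0.368, 0.403 and 0.387 FPKM in 2D. The log2 change there was 0.99 at DRCC 30 rpm and 0.74 at DRCC 1 rpm, and its level at DRCC 30 rpm stayed far below that of COX6B1. In both lines it reached the 1 FPKM asked of a tested gene only in DRCC libraries, so its changes are given as a description with no p, and its place in the counts of genes that rose is no support for them.

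NDUFA4 and NDUFA4L2 form the second such pair, and NDUFA4L2 is known as a target of the hypoxia-inducible factor. NDUFA4 had 48.1, 45.8 and 46.4 FPKM at DRCC 30 rpm and 87.5, 84.0 and 86.8 FPKM in 2D in HEK293T and fell by 0.87 ± 0.04 (SE, adjusted p = 7.8e-11) on the log2 scale. Its PANC-1 levels were 99.3, 92.9 and 105 FPKM at DRCC 30 rpm and 124, 134 and 129.7 FPKM in 2D and fell by 0.38 ± 0.04 (SE, adjusted p = 1e-06). NDUFA4L2 in HEK293T had 1.31, 1.49 and 1.37 FPKM at DRCC 30 rpm, 3.10, 2.25 and 2.71 FPKM at DRCC 1 rpm, 2.43, 3.01 and 3.22 FPKM in AggreWell and 0.554, 0.327 and 0.344 FPKM in 2D. Every AggreWell and DRCC 1 rpm library lay above every DRCC 30 rpm library, and every 2D library lay below all of these. Over 2D the log2 change was 0.77 at DRCC 30 rpm, 1.39 at DRCC 1 rpm and 1.46 in AggreWell. It too reached 1 FPKM only through the spheroid libraries, so these values are a description with no p. In PANC-1, where it was not tested within the line, it had 1.02, 1.18 and 0.697 FPKM at DRCC 30 rpm, 0.539, 0.534 and 0.283 FPKM at DRCC 1 rpm, 0.417, 0.163 and 0.165 FPKM in AggreWell and 0.202, 0.144 and 0.210 FPKM in 2D.

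COX7A2 and COX7A2L are a further pair of relatives. COX7A2, a small membrane subunit with the lowest log2 change of complex IV in PANC-1 at DRCC 30 rpm, had 93.0, 84.7 and 92.8 FPKM at DRCC 30 rpm and 113, 134 and 129.5 FPKM in 2D in PANC-1 and fell by 0.47 ± 0.06 (SE, adjusted p = 6.6e-06) on the log2 scale. HEK293T had 54.7, 50.9 and 54.1 FPKM at DRCC 30 rpm and 83.7, 79.1 and 80.5 FPKM in 2D of it, and the level fell by 0.60 ± 0.04 (SE, adjusted p = 4.8e-09). COX7A2L, a relative that helps join complexes III and IV into supercomplexes, had 43.0, 41.0 and 40.3 FPKM at DRCC 30 rpm, 34.9, 35.4 and 38.2 FPKM at DRCC 1 rpm, 24.1, 24.5 and 24.8 FPKM in AggreWell and 37.0, 36.4 and 37.6 FPKM in 2D in HEK293T. Its AggreWell libraries were the lowest of the line. The change at DRCC 30 rpm was 0.16 ± 0.04 (SE, adjusted p = 0.0011) in HEK293T and 0.04 ± 0.03 (SE, adjusted p = 0.3) in PANC-1, where it was not called, and both were below 0, at -0.05 and -0.20, under median-ratio scaling. PANC-1 had 65.2, 64.5 and 69.6 FPKM of it at DRCC 30 rpm and 65.2, 64.9 and 64.2 FPKM in 2D.

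COX4I1 and COX6A1 are the common isoforms of subunits whose other forms, COX4I2 and COX6A2, were at or near 0 here. COX4I1 had 209, 211 and 209 FPKM at DRCC 30 rpm and 341, 322 and 332 FPKM in 2D in HEK293T and fell by 0.66 ± 0.02 (SE, adjusted p = 1.6e-11). In PANC-1 it had 188, 180.2 and 196 FPKM at DRCC 30 rpm and 174, 185 and 189 FPKM in 2D, with overlap and no call at 0.04 ± 0.03 (SE, adjusted p = 0.26), while median-ratio scaling gave -0.20 and quantile normalization 0.11, both called. COX6A1 had 399, 413 and 435 FPKM at DRCC 30 rpm and 561, 531 and 558 FPKM in 2D in HEK293T, at -0.40 ± 0.03 (SE, adjusted p = 6e-08), which turned to 0.06 and was not called under quantile normalization. PANC-1 cells had 336, 329 and 320.0 FPKM at DRCC 30 rpm and 281, 307 and 303 FPKM in 2D, at 0.14 ± 0.04 (SE, adjusted p = 0.0016), which turned to -0.10 under median-ratio scaling and was not called without the length trend.

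Complex V, ATP synthase, turns a ring of c subunits in the membrane against a catalytic head. The same c subunit protein is made from 3 genes, ATP5MC1, ATP5MC2 and ATP5MC3. ATP5MC1 had 70.4, 78.6 and 71.5 FPKM at DRCC 30 rpm, 62.5, 59.7 and 61.0 FPKM at DRCC 1 rpm, 114, 113 and 111 FPKM in AggreWell and 207, 211 and 214 FPKM in 2D in HEK293T. The PANC-1 libraries read 214, 194 and 216 FPKM at DRCC 30 rpm, 233, 233 and 226 FPKM at DRCC 1 rpm, 314, 322 and 324 FPKM in AggreWell and 384, 424 and 408 FPKM in 2D. In both lines the DRCC libraries lay lowest, AggreWell between and 2D highest, with no overlap between DRCC and AggreWell. The level at DRCC 30 rpm fell by 1.51 ± 0.04 (SE, adjusted p = 4.8e-13) in HEK293T and 0.96 ± 0.04 (SE, adjusted p = 5.5e-11) in PANC-1, on the log2 scale.

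ATP5MC3 had 53.2, 48.8 and 49.4 FPKM at DRCC 30 rpm and 129.7, 130.0 and 131 FPKM in 2D in HEK293T and fell by 1.35 ± 0.04 (SE, adjusted p = 4.6e-12). PANC-1 had 59.6, 56.3 and 61.6 FPKM at DRCC 30 rpm and 75.4, 88.6 and 85.6 FPKM in 2D, and the level fell by 0.48 ± 0.06 (SE, adjusted p = 1.7e-06). ATP5MC2 stayed closer to 2D. It had 70.3, 69.1 and 71.3 FPKM at DRCC 30 rpm and 83.0, 75.5 and 81.5 FPKM in 2D in HEK293T, at -0.18 ± 0.03 (SE, adjusted p = 0.00017), which turned to 0.10 under quantile normalization and was not called at -0.01 without the mitochondrially encoded genes. Levels in PANC-1 were 71.4, 65.8 and 74.0 FPKM at DRCC 30 rpm and 66.6, 69.5 and 68.7 FPKM in 2D, at 0.04 ± 0.04 (SE, adjusted p = 0.28), not called, while it was 0.09 and called without DRCC 30 rpm replicate 2 and -0.20 under median-ratio scaling. The 3 genes for 1 protein thus had log2 changes from -1.51 to -0.18 in HEK293T.

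In the head, stalk and inhibitor at DRCC 30 rpm against 2D, the delta subunit and the inhibitor changed in opposite directions in the 2 lines and the beta subunit in the same one. ATP5F1B, the catalytic beta subunit, fell by 1.02 ± 0.02 (SE, adjusted p = 8.9e-14) in HEK293T, to 393 ± 7.22 FPKM at DRCC 30 rpm against 796 ± 14.8 FPKM in 2D, and by 0.43 ± 0.03 (SE, adjusted p = 1.2e-08) in PANC-1, to 674 ± 10.2 FPKM at DRCC 30 rpm against 911 ± 44.5 FPKM in 2D (SD, n = 3 each). ATP5F1D, the delta subunit of the central stalk, had 108, 107 and 107 FPKM at DRCC 30 rpm, 100.2, 100.1 and 105 FPKM at DRCC 1 rpm, 141, 139.8 and 148 FPKM in AggreWell and 209, 192 and 208 FPKM in 2D in HEK293T. In PANC-1 it had 100.7, 100.7 and 100.4 FPKM at DRCC 30 rpm, 67.03, 62.9 and 62.6 FPKM at DRCC 1 rpm, 65.9, 65.8 and 65.2 FPKM in AggreWell and 77.4, 76.7 and 78.7 FPKM in 2D. Against 2D, its level at DRCC 30 rpm fell by 0.91 ± 0.03 (SE, adjusted p = 3.2e-11) in HEK293T and rose by 0.37 ± 0.03 (SE, adjusted p = 1e-08) in PANC-1, whereas at DRCC 1 rpm and in AggreWell it was called lower than 2D in both lines.

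ATP5IF1 is the inhibitor that blocks ATP hydrolysis when the proton gradient fails. It had 100.98, 92.6 and 100.8 FPKM at DRCC 30 rpm, 103, 107 and 105 FPKM at DRCC 1 rpm, 122, 116 and 123 FPKM in AggreWell and 152, 145 and 150.1 FPKM in 2D in HEK293T, and 48.0, 46.3 and 51.7 FPKM at DRCC 30 rpm, 35.4, 37.8 and 36.1 FPKM at DRCC 1 rpm, 36.2, 36.7 and 34.7 FPKM in AggreWell and 29.7, 31.4 and 29.7 FPKM in 2D in PANC-1. HEK293T libraries in 2D were the highest of that line, and PANC-1 libraries in 2D were the lowest of theirs. ATP5IF1 at DRCC 30 rpm fell by 0.60 ± 0.04 (SE, adjusted p = 2.5e-09) in HEK293T and rose by 0.67 ± 0.04 (SE, adjusted p = 2.3e-09) in PANC-1, on the log2 scale.

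**Figure D3:**
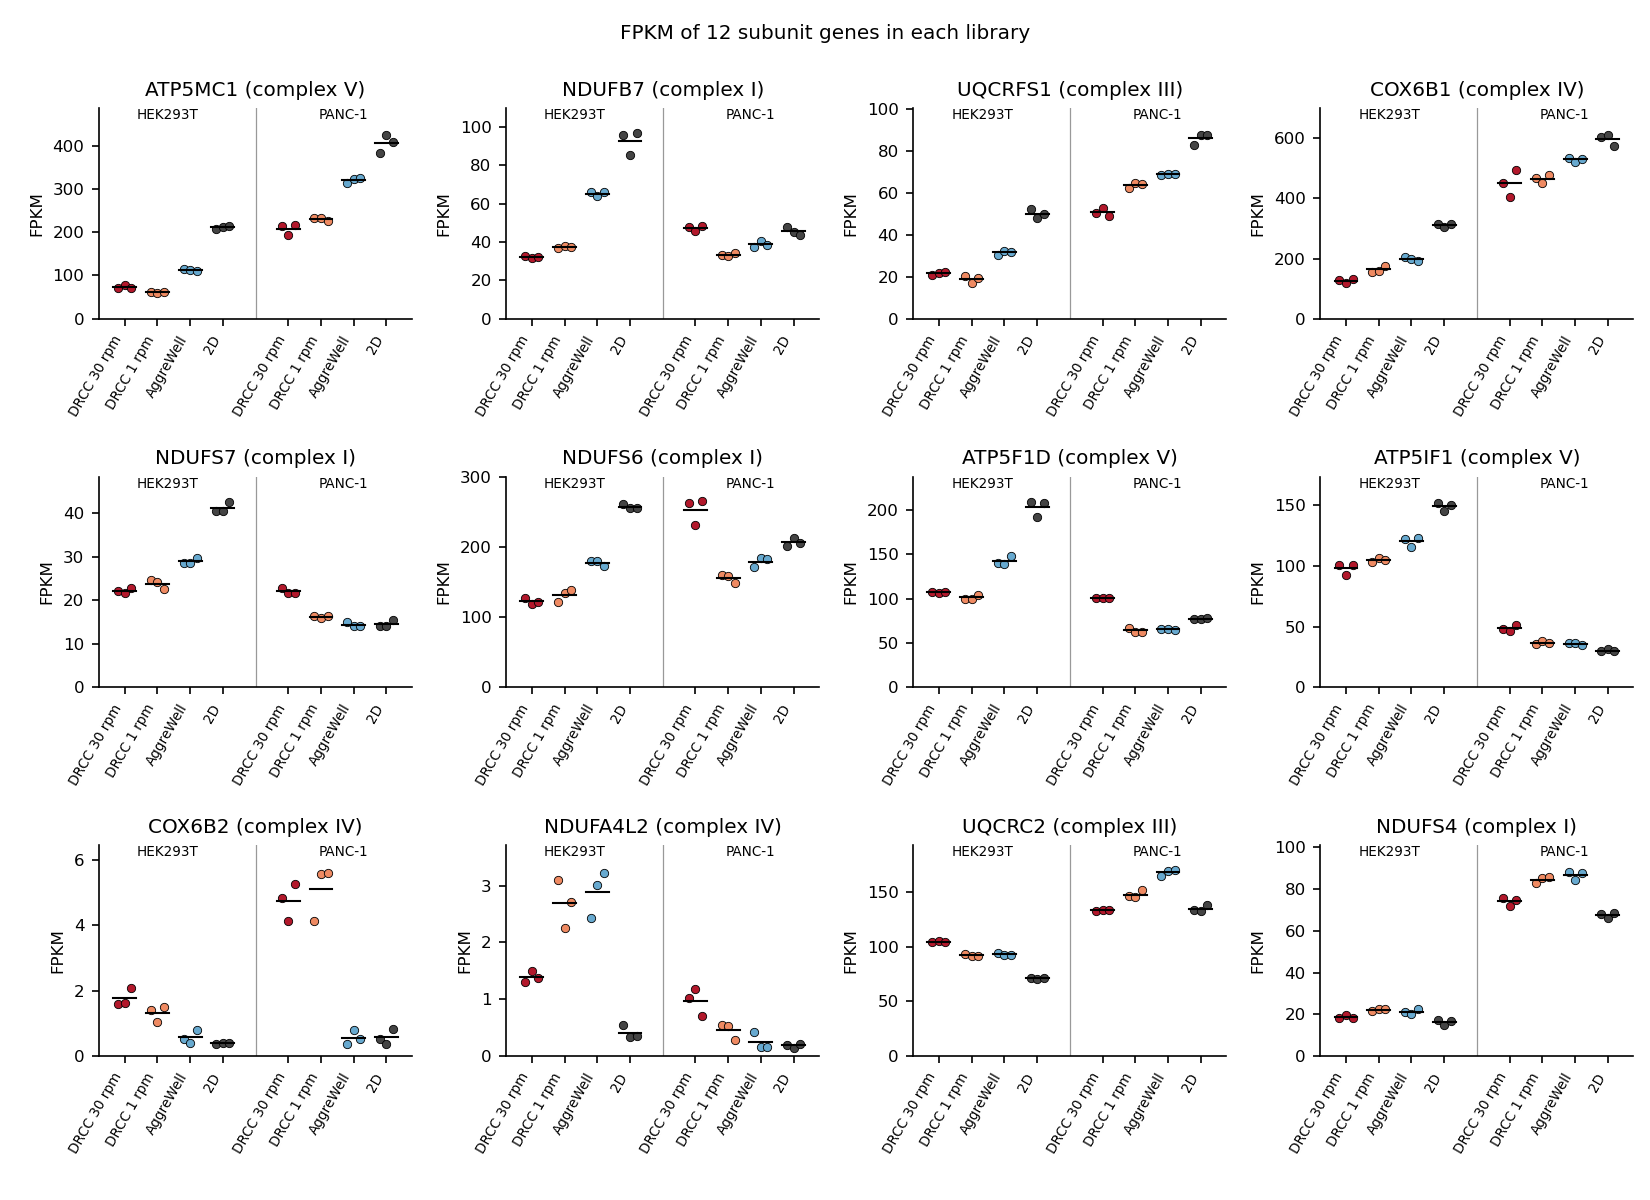
FPKM of 12 subunit genes (vertical axes, each from 0) in every library, by line and format. Points are libraries and horizontal lines their means. ATP5MC1 and UQCRFS1 are lowest in DRCC in both lines, NDUFS7, NDUFS6, ATP5F1D and ATP5IF1 at DRCC 30 rpm lie below 2D in HEK293T and above it in PANC-1, and COX6B2 stands out in PANC-1 DRCC.

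At DRCC 1 rpm against 2D the picture in HEK293T was close in count, with 65 of 76 lower and 5 higher, and 8 genes at least 2-fold lower. The median was -0.58 against 0.18 over all genes, of which 31.7% were called lower and 53.1% higher. The median of the set was -0.87 under median-ratio scaling and -0.33 under quantile normalization. ATP5MC1 fell by 1.77 ± 0.04 (SE, adjusted p = 1.5e-13), UQCRFS1 fell by 1.35 ± 0.05 (SE, adjusted p = 5.7e-11), NDUFB7 fell by 1.29 ± 0.04 (SE, adjusted p = 5.7e-12), ATP5MC3 fell by 1.13, NDUFA8 fell by 1.07, NDUFS6 fell by 0.96, COX6B1 fell by 0.92 and ATP5IF1 fell by 0.50 on the log2 scale. UQCRC2 (0.37) and NDUFS4 (0.42) were among the 5 that rose, with UQCRB (0.31, not called under median-ratio scaling or without the length trend) and with COX6B2 and NDUFA4L2.

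In PANC-1 at DRCC 1 rpm more of these genes fell than rose. Of 75, 52 fell and 11 rose, with a median of -0.25 against 0.15 over all genes, of which 33.9% were called lower and 52.3% higher. The split was 67 lower and 3 higher under median-ratio scaling (median -0.48), 31 and 20 under quantile normalization (-0.06), and 42 and 17 without the length trend. Over all genes the shares lower and higher were 45.3% and 40.1%, 43.6% and 41.5%, and 33.9% and 51.6%, in that order. ATP5MC3 fell by 0.91 ± 0.06 (SE, adjusted p = 1.8e-09), NDUFA8 fell by 0.86 ± 0.06 (SE, adjusted p = 8.5e-09) and ATP5MC1 fell by 0.81 ± 0.04 (SE, adjusted p = 3e-10). NDUFB7 (-0.44), UQCRFS1 (-0.43), NDUFS6 (-0.41) and COX6B1 (-0.36, not called at -0.06 under quantile normalization) also fell. UQCRB (0.45), NDUFS4 (0.32), ATP5IF1 (0.26, not called at 0.03 under median-ratio scaling) and UQCRC2 (0.13, -0.10 under that scaling) rose.

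In AggreWell, where the spheroids sit in wells, the medians by the deposited values lay nearer to 0 than in DRCC in both lines. In HEK293T 66 of 76 were lower than in 2D and 4 higher, with a median of -0.41 against 0.12 over all genes, of which 26.8% were called lower and 48.6% higher. The median of the set was -0.64 under median-ratio scaling and -0.23 under quantile normalization. ATP5MC1 fell by 0.90 ± 0.04 (SE, adjusted p = 1.9e-10), ATP5MC3 fell by 0.76, NDUFB9 fell by 0.66, UQCRFS1 fell by 0.65 and COX7A2L fell by 0.58. The 4 that rose were NDUFA4L2, UQCRC2 (0.38), NDUFS4 (0.36) and UQCRB, which was called lower under median-ratio scaling.

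PANC-1 in AggreWell had a split of calls that depended on the scaling. Of 75 genes 31 fell and 14 rose, with a median of -0.10 against 0.10 over all genes, of which 24.1% were called lower and 45.9% higher. The split became 57 lower and 4 higher under median-ratio scaling (median -0.29), 17 and 22 under quantile normalization (0.01), 13 and 18 without the mitochondrially encoded genes (0.00), and 20 and 15 without the length trend (-0.03). Over all genes the shares lower and higher were 42.8% and 29.0%, 35.1% and 30.0%, 15.8% and 57.6%, and 23.9% and 45.1%, in that order. Relative to all genes, the median of the set was -0.20 by the deposited values and -0.23, 0.04, -0.18 and -0.11 under these 4 scalings. NDUFB9 fell by 0.35, ATP5MC1 fell by 0.34, UQCRFS1 fell by 0.32, COX7A2L fell by 0.20 and ATP5MC3 fell by 0.19, the last not called under quantile normalization or without the mitochondrially encoded genes. All 4 genes of the peripheral stalk of ATP synthase (ATP5PB, ATP5PD, ATP5PF and ATP5PO), which holds the head still, were called higher, with a median of 0.21, although none was called under median-ratio scaling, where the median was 0.01. NDUFA5, an accessory subunit of the peripheral arm, rose by 0.61 ± 0.04 (SE, adjusted p = 1e-08), with 6.72, 7.01 and 7.02 FPKM in AggreWell and 4.21, 4.23 and 4.13 FPKM in 2D. NDUFS4 (0.36) and UQCRC2 (0.32) rose as well.

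Set directly against AggreWell, most of the set was lower in DRCC in HEK293T. At 30 rpm 59 of 76 were lower and 8 higher, with a median of -0.31 against 0.01 over all genes (38.7% lower, 39.9% higher). NDUFB7 fell by 0.9997 ± 0.04 (SE, adjusted p = 1.5e-10) and NDUFC2 fell by 0.92 ± 0.07 (SE, adjusted p = 6.7e-08), while COX7A2L rose by 0.74 ± 0.04 (SE, adjusted p = 9e-10) and COX6B2 had a log2 difference of 0.82. At 1 rpm 44 were lower and 8 higher, with a median of -0.17 against 0.04 (33.8% lower, 41.8% higher). ATP5MC1 fell by 0.87 ± 0.04 (SE, adjusted p = 3.5e-10) and NDUFB10 fell by 0.86 ± 0.03 (SE, adjusted p = 2.2e-10), and COX7A2L (0.54) and ATP5MC2 (0.38) rose.

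In PANC-1 DRCC 30 rpm against AggreWell gave 40 lower and 26 higher, with a median of -0.13 against 0.05 over all genes (37.8% lower, 45.4% higher). Without the mitochondrially encoded genes the split was 46 and 19 with a median of -0.26, without the length trend the median was -0.24, and without DRCC 30 rpm replicate 2 it was -0.09. Of all genes, 46.1% were lower and 37.6% higher without the mitochondrially encoded genes, with a median of -0.06. NDUFC2 fell by 0.85 ± 0.07 (SE, adjusted p = 4e-08) and NDUFS1, the largest core subunit of complex I, fell by 0.72 ± 0.03 (SE, adjusted p = 2.6e-11), while ATP5F1D rose by 0.61 ± 0.03 (SE, adjusted p = 7.1e-11) and COX6B2 had a log2 difference of 1.88. DRCC 1 rpm against AggreWell gave 49 lower and 11 higher, with a median of -0.18 against 0.03 (38.4% lower, 43.7% higher), and 37 and 16 under quantile normalization with a median of -0.10. Under quantile normalization 42.0% of all genes were lower and 40.1% higher. NDUFA8 (-0.75) and ATP5MC3 (-0.72) fell, and ATP5MC2 (0.31) rose.

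Between the 2 rotation speeds the median of the set lay below 0 in HEK293T and, by the deposited values, above 0 in PANC-1. In HEK293T 30 rpm had 44 genes lower and 9 higher than 1 rpm, with a median of -0.13 against -0.04 over all genes (32.9% lower, 19.6% higher), and 22 and 11 under median-ratio scaling with a median of -0.05. Under that scaling 21.8% of all genes were lower and 30.9% higher. NDUFA4L2 fell by 0.62 ± 0.10 (SE, adjusted p = 0.00018), NDUFB2 fell by 0.53 ± 0.05 (SE, adjusted p = 7.1e-06) and NDUFA6 fell by 0.44 ± 0.04 (SE, adjusted p = 3.3e-06), and ATP5MC1 rose by 0.26 ± 0.04 (SE, adjusted p = 7.7e-05). NDUFB2 had 83.4, 69.2 and 75.8 FPKM at 30 rpm and 107, 114 and 110.2 FPKM at 1 rpm, without overlap.

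In PANC-1 30 rpm had 33 genes higher and 19 lower than 1 rpm, with a median of 0.09 against 0.02 over all genes (36.2% higher, 31.9% lower). The split of calls turned under 3 other scalings, with 22 higher and 30 lower under quantile normalization, 27 and 30 without the mitochondrially encoded genes, and 22 and 29 without the length trend. Over all genes the shares higher and lower were 32.5% and 36.6%, 25.5% and 43.7%, and 36.3% and 29.3%, in that order. Relative to all genes, the median of the set was 0.074 by the deposited values and -0.006, 0.065 and -0.071 under these 3. It thus stayed above that of all genes without the mitochondrially encoded genes. By the deposited values the median of the set was 0.055 without DRCC 30 rpm replicate 1 and 0.035 without DRCC 30 rpm replicate 3. NDUFS6 rose by 0.70 ± 0.05 (SE, adjusted p = 3.9e-08), ATP5F1D by 0.64 ± 0.03 (SE, adjusted p = 4.2e-10) and NDUFA11, a membrane-arm subunit, by 0.54 ± 0.04 (SE, adjusted p = 6.3e-08). NDUFS1 fell by 0.42 ± 0.03 (SE, adjusted p = 3e-08) and UQCRFS1 fell by 0.32 ± 0.03 (SE, adjusted p = 7.3e-07). NDUFA11 had 29.9, 29.2 and 30.9 FPKM at 30 rpm and 21.0, 20.6 and 19.5 FPKM at 1 rpm.

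By group means of the deposited FPKM, 2D was the highest format for 69 of 76 genes in HEK293T and for 33 of 75 in PANC-1. This order was not taken over all genes or under other scalings, so it does not set the 76 genes apart. DRCC 30 rpm was the lowest for 55 genes in HEK293T. In PANC-1 DRCC 1 rpm was the lowest for 33 genes, DRCC 30 rpm for 24, AggreWell for 13 and 2D for 5, and DRCC 30 rpm was the highest for 23. Complex IV had the largest such share, with DRCC 30 rpm highest for 7 of its 13 tested genes in PANC-1.

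The response of the 2 lines was compared in one fit over all 24 libraries, as the HEK293T change minus the PANC-1 change. At DRCC 30 rpm the difference was below 0 and called for 61 of 76 genes and above 0 for 6, with a median of -0.52 against -0.04 over all 13392 genes tested, of which 42.0% were called below and 37.5% above. Without the mitochondrially encoded genes the median was -0.31, with 50 below and 9 above, and without the length trend it was -0.35. Over all genes without the mitochondrially encoded ones, 32.7% were below and 46.8% above, with a median of 0.12. Relative to all genes, the median of the set was -0.48 by the deposited values. It was -0.43 without the mitochondrially encoded genes and -0.30 without the length trend. At DRCC 1 rpm the counts were 55 and 5 (median -0.29 against 0.03, background 35.8% and 40.0%), and 45 and 12 without the mitochondrially encoded genes. In AggreWell they were 68 and 1 (median -0.32 against 0.03, background 25.0% and 32.0%). In either direction, 79.5% of all genes had a called difference at DRCC 30 rpm, 75.8% at DRCC 1 rpm and 57.0% in AggreWell, so the count of both directions at DRCC 1 rpm was near the share over all genes. All 17 genes of complex V and all 7 core subunits of complex I had a called difference below 0 in AggreWell.

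The largest difference at DRCC 30 rpm was that of NDUFB7, -1.55 ± 0.06 (SE, adjusted p = 9.2e-16). NDUFS7 had -1.43 ± 0.05 (SE, adjusted p = 8.5e-16), NDUFS6 -1.35 ± 0.07 (SE, adjusted p = 1.6e-13), ATP5F1D -1.28 ± 0.04 (SE, adjusted p = 2.6e-16) and ATP5IF1 -1.27 ± 0.06 (SE, adjusted p = 1.8e-14), and these 4 were called in opposite directions in the 2 lines there. UQCRC2 differed the other way, at 0.56 ± 0.03 (SE, adjusted p = 2.2e-13), as did NDUFS1, at 0.50 ± 0.04 (SE, adjusted p = 9.2e-11). NDUFS1 had 11.8, 11.7 and 12.1 FPKM at DRCC 30 rpm and 12.6, 12.8 and 12.4 FPKM in 2D in HEK293T, and 11.1, 10.98 and 10.8 FPKM at DRCC 30 rpm and 16.5, 17.2 and 16.9 FPKM in 2D in PANC-1. At DRCC 1 rpm the differences of ATP5MC1 (-0.96) and UQCRFS1 (-0.93) were called. In AggreWell NDUFB1, a single-span membrane subunit, had -0.62 ± 0.15 (SE, adjusted p = 0.0013) and ATP5MC1 -0.56 ± 0.06 (SE, adjusted p = 7.4e-08). NDUFA4L2 was 1.097 at DRCC 1 rpm and 1.39 in AggreWell, as a description.

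The 2 lines share no library, so their calls can be crossed. Of the 75 genes tested in both at DRCC 30 rpm, 39 were lower in both and 3, NDUFS4, UQCRB and COX6B2, were higher in both. Another 14 were lower in HEK293T and higher in PANC-1, and none was the reverse. Of all 10752 genes tested in both lines, 19.1% were lower in both, 34.1% higher in both, 12.8% lower in HEK293T and higher in PANC-1, and 9.10% the reverse. The opposite calls of the set were thus near the share over all genes. The set had some reverse calls under other scalings (1 under median-ratio scaling or without the length trend, 2 under quantile normalization or without the mitochondrially encoded genes). The 14 comprise 9 genes of complex I (NDUFA2, NDUFA7, NDUFA11, NDUFB4, NDUFB10, NDUFS6, NDUFS7, NDUFS8 and NDUFV1), UQCRC1, COX5B, COX6A1, ATP5F1D and ATP5IF1. Median-ratio scaling left 5 of the 14, namely NDUFS7, NDUFS8, NDUFA7, ATP5F1D and ATP5IF1, with 55 lower in both lines at DRCC 30 rpm and COX6B2 alone higher in both. The opposite count there was 15 under quantile normalization and 12 without the mitochondrially encoded genes or without the length trend, and those 5 were in it each time. The share over all genes was 11.4%, 11.6%, 8.54% and 12.9% under these 4 scalings, in the order given. At DRCC 1 rpm 49 genes were lower in both lines and 6 lower in HEK293T but higher in PANC-1, against 21.0% and 8.35% of all genes (66 and 0 of the set under median-ratio scaling, 30 to 43 and 8 to 11 under the other 3). In AggreWell the counts were 31 and 7, against 16.1% and 4.41% of all genes (57 and 1 under median-ratio scaling, 13 to 20 and 6 to 10 under the other 3).

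**Figure D4:**
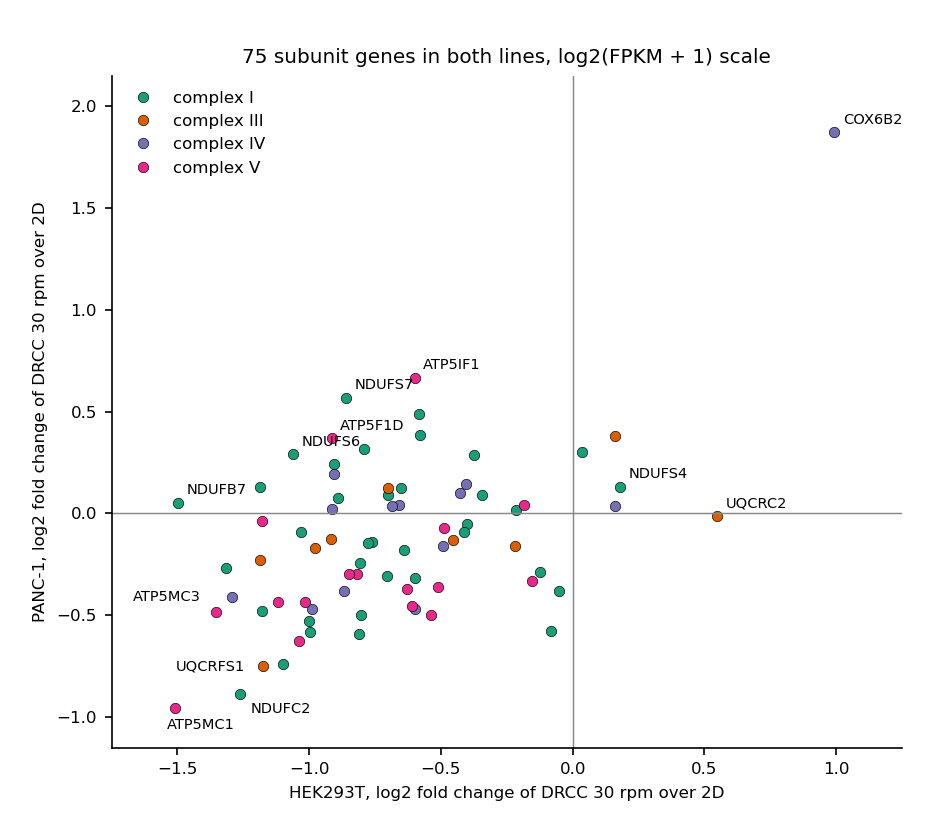
Log2 fold change of DRCC 30 rpm over 2D in HEK293T (horizontal axis) and PANC-1 (vertical axis) for 75 genes, each point a gene, coloured by complex. Most points lie left of 0, and those in the upper left, such as NDUFS7 (-0.86 and 0.57), fell in HEK293T and rose in PANC-1.

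In 2D the set differed between the lines about as often as all genes did, and in like proportions. HEK293T was higher than PANC-1 for 43 of 76 genes and lower for 26, with a median of 0.23 against 0.27 over all genes (56.1% higher, 34.7% lower), and 31 and 38 under median-ratio scaling, where the median was -0.11. Over all genes that scaling gave 45.5% higher and 44.6% lower. The median was 0.14 without the mitochondrially encoded genes and 0.13 without the length trend. ATP5IF1 was 2.26 ± 0.04 (SE, adjusted p = 1.6e-22) higher in HEK293T on the log2 scale, and NDUFA7, an accessory subunit, 1.77 ± 0.05 (SE, adjusted p = 5.3e-19) higher, with 129, 131 and 132 FPKM in HEK293T and 35.2, 39.6 and 38.2 FPKM in PANC-1. NDUFS4, at -1.99 ± 0.04 (SE, adjusted p = 7.8e-21), and NDUFV2, a core subunit with an iron-sulfur cluster, at -1.49 ± 0.04 (SE, adjusted p = 4.2e-20), were lower in HEK293T. NDUFV2 had 62.9, 59.8 and 58.4 FPKM in HEK293T and 172, 172 and 169.6 FPKM in PANC-1. At DRCC 30 rpm it had 56.6, 54.6 and 54.6 FPKM in HEK293T and 139.8, 138 and 142 FPKM in PANC-1, and NDUFA7 had 86.8, 85.1 and 89.2 FPKM in HEK293T and 48.1, 47.4 and 52.8 FPKM in PANC-1.

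Other genes of the pathway were taken from lists, all at DRCC 30 rpm against 2D. Their counts stand beside the shares over all genes, 35.5% lower and 49.6% higher in HEK293T and 32.2% lower and 53.6% higher in PANC-1. Complex II, which feeds electrons from succinate, had 4 of 4 subunits lower in HEK293T, with SDHC at -0.95 and SDHB at -0.92, and 2 lower and 1 higher in PANC-1, with SDHC at -0.56 and SDHB at -0.37. Assembly factors of complex IV had 16 of 26 lower and 4 higher in HEK293T, and 16 lower and 5 higher in PANC-1. SCO2, a copper chaperone, fell by 1.66 ± 0.06 (SE, adjusted p = 1.2e-11) in HEK293T and 0.99 ± 0.08 (SE, adjusted p = 6.6e-08) in PANC-1, and COA3 fell by 1.43 in HEK293T. LRPPRC, which stabilises mitochondrial messages, rose by 1.09 ± 0.03 (SE, adjusted p = 2.8e-12) in HEK293T, to 41.4 ± 1.90 FPKM at DRCC 30 rpm against 18.95 ± 0.341 FPKM in 2D (SD, n = 3 each).

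Complex I assembly factors had 12 of 19 lower and 6 higher in HEK293T and 10 of 18 lower and 2 higher in PANC-1, with NDUFAF8 at -1.47 in HEK293T and -0.53 in PANC-1. Those of complex III had 4 of 6 lower and 1 higher in HEK293T and 5 and 1 in PANC-1, with UQCC1 at -1.083 in HEK293T and -0.88 in PANC-1. Those of ATP synthase had 3 of 4 lower and 1 higher in HEK293T, with ATPAF1 at -1.23, and 2 and 2 in PANC-1, with ATPAF1 at -0.66. Coenzyme Q synthesis had 10 of 11 lower and 1 higher in HEK293T, with COQ7 at -0.88, and 5 and 4 in PANC-1.

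Electron carriers and related genes listed with them, outside the name rule, were split, with 4 of 8 lower and 3 higher in HEK293T, and 4 and 3 in PANC-1. NDUFAB1, the acyl carrier protein of complex I, was at -1.23 and cytochrome c1, CYC1, at -1.01 in HEK293T, and cytochrome c, CYCS, at -0.91 in PANC-1. COQ10B rose in both, by 1.1001 in HEK293T and 1.19 in PANC-1. The tricarboxylic acid cycle, which supplies NADH, had 10 of 13 genes lower and 2 higher in HEK293T and 9 and 2 in PANC-1. OGDH, of the oxoglutarate dehydrogenase complex, fell by 1.73 ± 0.04 (SE, adjusted p = 3e-13) in HEK293T, to 3.29 ± 0.116 FPKM at DRCC 30 rpm against 13.3 ± 0.171 FPKM in 2D, and by 0.99 ± 0.03 (SE, adjusted p = 4.7e-12) in PANC-1, to 17.1 ± 0.418 FPKM at DRCC 30 rpm against 34.8 ± 1.24 FPKM in 2D (SD, n = 3 each), and SUCLA2 rose by 1.27 in HEK293T.

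Among regulators of these genes, 3 of 8 rose and 4 fell in HEK293T (4 and 1 without the mitochondrially encoded genes), and 3 rose and 4 fell in PANC-1. GABPA, a subunit of GABP whose gene overlaps ATP5PF, rose by 1.78 ± 0.12 (SE, adjusted p = 9.5e-09) in HEK293T, to 27.6 ± 0.0133 FPKM at DRCC 30 rpm against 7.43 ± 1.70 FPKM in 2D, and by 0.90 ± 0.04 (SE, adjusted p = 5.5e-11) in PANC-1, to 17.8 ± 0.993 FPKM at DRCC 30 rpm against 9.07 ± 0.0948 FPKM in 2D (SD, n = 3 each). HIF1A, the oxygen-regulated factor, rose by 1.81 ± 0.04 (SE, adjusted p = 4.6e-13) in HEK293T and 0.75 ± 0.03 (SE, adjusted p = 4e-11) in PANC-1. Genes of mitochondrial DNA replication and transcription had 7 of 16 higher and 6 lower in HEK293T, where median-ratio scaling gave 6 and 7 and which is near the shares over all genes, and 4 and 10 in PANC-1.

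The 13 mitochondrially encoded subunits together took their smallest share of fragments in PANC-1 at DRCC 30 rpm. At DRCC 30 rpm 13 of 13 fell in PANC-1, with a median log2 change of -2.37, and 8 fell and 3 rose in HEK293T, with a median of -0.95. In AggreWell, PANC-1 had 4 lower and 2 higher (median -0.01) and HEK293T 13 lower (median -0.95). The summed FPKM of the 76 nuclear genes over that of the 13 mitochondrial ones was 0.566 to 0.607 in PANC-1 at DRCC 30 rpm, 0.386 to 0.402 at DRCC 1 rpm, 0.223 to 0.232 in AggreWell and 0.212 to 0.251 in 2D. In HEK293T it was 0.165 to 0.180 at DRCC 30 rpm, 0.218 to 0.233 at DRCC 1 rpm, 0.257 to 0.262 in AggreWell and 0.233 to 0.242 in 2D. The ratio at DRCC 30 rpm was thus above 2D in PANC-1 and below it in HEK293T. The effect of these shifts on the nuclear results was examined only by leaving the 13 genes out. Each library was then scaled to an equal sum of the remaining FPKM. That scaling also evens out other differences in summed FPKM, so a move cannot be credited to the 13 genes alone. In HEK293T at DRCC 30 rpm against 2D this gave 62 lower and 8 higher, with a median of -0.53, and in PANC-1 42 and 16, with a median of -0.17. Over all genes, 27.5% were lower and 58.5% higher in HEK293T (median 0.27), and 33.6% and 51.9% in PANC-1 (median 0.14).

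**Figure D5:**
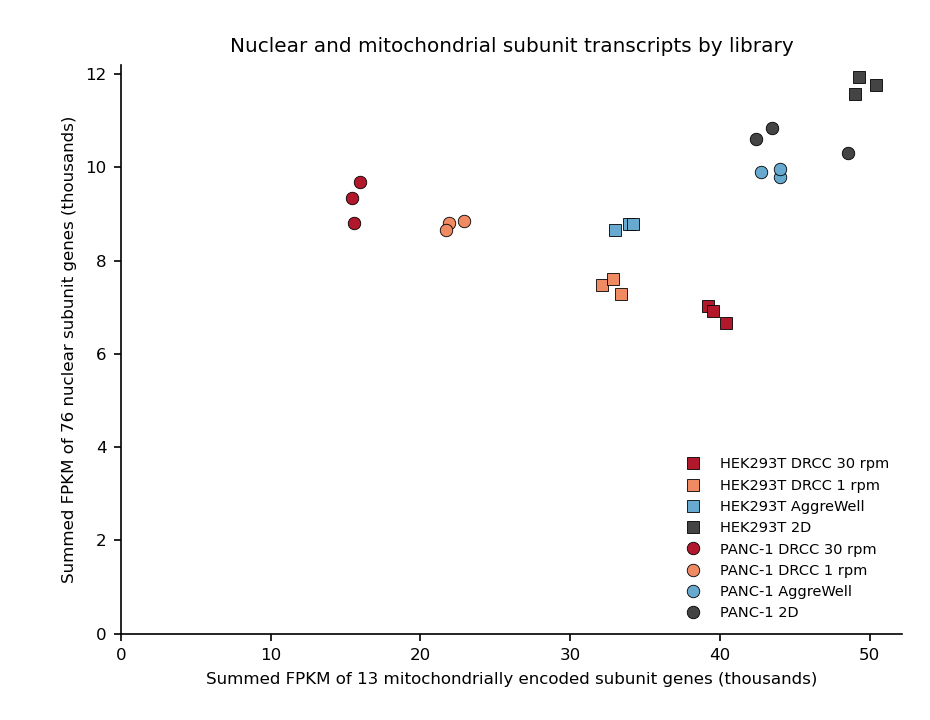
Summed FPKM of the 13 mitochondrially encoded genes (horizontal axis, in units of 1000 FPKM) and of the 76 nuclear genes (vertical axis, same units) in each of the 24 libraries, squares HEK293T and circles PANC-1, coloured by format. PANC-1 DRCC libraries stand at the left, at 15408 to 15958 FPKM of mitochondrial transcripts at DRCC 30 rpm, and HEK293T DRCC libraries lie lowest on the vertical axis.

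Many of these genes are short, and 32 have a counted length under 1000 bases. At DRCC 30 rpm in HEK293T 31 of the 32 short genes fell, with a median of -0.90, and 37 of the 44 longer ones, with a median of -0.65. Over all genes tested the medians were -0.06 under 1000 bases and 0.13 above, with 305 of 722 and 4145 of 11826 lower. In PANC-1 both classes had a median of -0.14, with 17 of 32 and 23 of 43 lower. Over all genes tested there the medians were 0.23 and 0.17, with 193 of 623 and 3533 of 10962 lower. With the length trend taken out, 66 genes fell and 6 rose in HEK293T, with a median of -0.56, and 42 fell and 16 rose in PANC-1, with a median of -0.19. Over all genes that gave 35.7% lower and 48.8% higher in HEK293T and 32.0% and 53.8% in PANC-1.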

How the data were processed

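RNA-seq libraries of HEK293T and PANC-1 in 4 culture formats, 3 per group, were analysed from the table of FPKM per gene that the authors deposited, in which fragments are divided by transcript length and library total. Tools named in the submitters' processing notes are HTSeq, HISAT2, fastp and R 3.2.0, without their roles. The notes name the mouse build mm10 whereas the symbols are human, so no coordinates were taken from the table. Annotation and strand setting are not stated in the sources used here.

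Lengths and whole fragments were recovered from the FPKM steps, with 99.994% of values whole within a tolerance of 0.01, and library totals of 32555400 to 39556168 fragments. These totals limit the precision of low genes, and intervals on counts were not computed. All 24 value columns were matched to samples by their labels. No 2 libraries agreed within sampling noise (chi-square per degree of freedom of 2.81 to 9.86 between libraries of a group).

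Genes that reached 1 FPKM in 3 or more libraries were tested with limma 3.58.1 (R 4.3.3, intensity trend) on log2(FPKM + 1), which understates the change of low genes. Each line was fitted over its 12 libraries, and differences between lines over all 24. The p-values were adjusted by Benjamini-Hochberg over all genes tested, and an adjusted p under 0.05 was called. The fit was tested on simulated data. Tables were handled with Python 3.11.15, pandas 2.3.3 and numpy 2.4.6, and figures drawn with matplotlib 3.10.9.

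Values of every library are given for the largest change per complex and line, the isoform families, ATP5IF1, genes called in opposite directions and the largest line differences, and other genes are named in order of change. UQCRC2, NDUFS1, COX7A2L beyond 30 rpm, NDUFA5, NDUFA11, NDUFB2, the gene counts by promoter motif and the crossing of both lines' calls over all genes were added after values had been seen. The members and lists were chosen with earlier results of these data known. Alternatives were median-ratio and quantile scaling, removal of the mitochondrially encoded genes or of the length trend, a pseudocount of 0.1, other filters, robust variance shrinkage, voom on recovered fragments, fits over 2 formats only, a replicate block and leaving out each library. Where the mitochondrially encoded genes were removed, each library was also scaled to an equal sum of its remaining FPKM.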

Additional observations from a re-analysis of the deposited data

Results flagged for a closer look

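The change against 2D differed between the lines, by the test of that difference in the fit over all 24 libraries, for 67 of the 76 genes at DRCC 30 rpm, 60 at DRCC 1 rpm and 69 in AggreWell. Over all 13392 genes tested the shares with a called difference were 79.5%, 75.8% and 57.0% in the same order, so the count at DRCC 1 rpm was near the share over all genes. The differences below are HEK293T minus PANC-1 on the log2 scale.

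At DRCC 30 rpm NDUFB7 differed by -1.55, NDUFS7 by -1.43, NDUFS6 by -1.35, ATP5F1D by -1.28 and ATP5IF1 by -1.27. UQCRC2, at 0.56, and NDUFS1, at 0.50, differed in the other direction. At DRCC 1 rpm the differences were -0.96 for ATP5MC1, -0.93 for UQCRFS1 and 1.097 for NDUFA4L2. In AggreWell they were -0.62 for NDUFB1, -0.56 for ATP5MC1 and 1.39 for NDUFA4L2, whose level in PANC-1 was at most 1.18 FPKM in any library and which reached 1 FPKM in HEK293T only in spheroid libraries.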

How the results depend on the processing

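The count of subunit genes called stayed within 1.5 times the reported one in all 16 comparisons under every alternative run, except that HEK293T at DRCC 30 rpm against DRCC 1 rpm had 33 called under median-ratio scaling, and the cause was not tested. This count takes both directions together, so it does not register a turn of direction. Under quantile normalization, PANC-1 at 30 against 1 rpm went from 33 higher and 19 lower to 22 and 30. PANC-1 in AggreWell against 2D went from 14 and 31 to 22 and 17. Leaving out each library in turn gave 72 to 74 called for HEK293T at DRCC 30 rpm against 2D, 55 to 60 for PANC-1 at DRCC 30 rpm, 40 to 48 for PANC-1 in AggreWell and 42 to 52 for HEK293T at 30 against 1 rpm. voom on recovered fragments called 74, 60, 52 and 50 in these 4 comparisons.

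Alternatives gave 2764 values for 160 pairs of a named gene and a comparison. Of these, 2735 kept their call or their lack of one, with the same sign where called. Another 11 lost the call, 4 gained one and 14 changed sign with a call in the main fit, the alternative or both. Changes of sign with no call in either fit were not counted apart. In PANC-1 at DRCC 30 rpm, median-ratio scaling gave -0.19 for NDUFB7, -0.11 for NDUFS4, -0.20 for COX4I1, -0.10 for COX6A1, -0.20 for COX7A2L and -0.20 for ATP5MC2, and quantile normalization 0.055 for UQCRC2. In PANC-1 at DRCC 1 rpm median-ratio scaling gave -0.10 for UQCRC2. In HEK293T at DRCC 30 rpm it gave -0.020 for NDUFS4, -0.040 for UQCRB and -0.047 for COX7A2L, while quantile normalization gave 0.061 for COX6A1 and 0.10 for ATP5MC2, and removal of the length trend -0.063 for UQCRB. The cause of these changes was not tested.

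With the replicate number as a block, 74 genes were called in HEK293T and 58 in PANC-1 at DRCC 30 rpm against 2D, and no count of calls moved by over 1.5 times. Libraries with the same number did not deviate together in every pair (median correlation 0.07 in HEK293T and -0.03 in PANC-1), so the numbers were not taken as pairs. Depth of at least 32555400 fragments leaves genes under about 1 FPKM, such as NDUFA4L2 in PANC-1, the least certain.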
